A study of Mus musculus with 18 samples.

Results

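The comparison described here sets wild-type E14Tg2a mouse embryonic stem cells after retinoic acid against the same line kept in 2i with vitamin C, 3 RNA libraries against 3, chosen by their labels from the 18 libraries of the series. E14Tg2a is a male embryonic stem cell line, and the other 12 libraries are wild-type cells in serum with LIF and a Daxx-null derivative (Daxx-/-) under all 3 cultures, also 3 libraries each. For the retinoic acid group, cells were kept in DMEM with fetal bovine serum and LIF at 1000 units per mL, then held 24 h without LIF and a further 4 days without LIF in retinoic acid at 10 µM, a treatment that the labels call neuronal differentiation. The 2i group, labelled ground state pluripotency, grew in a serum-free Neurobasal and DMEM/F-12 mix with N2 and B-27 supplements, inhibitors of GSK3 and MEK, LIF and vitamin C at 100 µg per mL. The retinoic acid cells were therefore derived from serum and LIF and not from 2i, so every difference below also spans the change of basal medium, serum, inhibitors and vitamin C, and these cannot be told apart. Levels of wild-type cells in serum with LIF are given beside the comparison where they help to place it.

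Retinoic acid is made from vitamin A by retinaldehyde dehydrogenases, is broken down by Cyp26 enzymes, and acts through nuclear receptors (RAR with RXR) that bind paired half-sites near target genes such as Rarb, Cyp26a1 and the 3′ Hox genes. In the embryo it patterns the hindbrain and spinal cord and many other tissues, and in culture it drives stem cells out of pluripotency. 2i blocks the differentiation signal of FGF and ERK and stabilises beta-catenin, which holds stem cells in a state like the preimplantation epiblast, and vitamin C is a cofactor of Tet and histone demethylase enzymes.

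The receptor element can be read directly in the promoters of 2 genes the results turn on. Rarb encodes a retinoic acid receptor (mm9 chr14:17263354-17407990, minus strand), and Cyp26a1 encodes the main retinoic acid hydroxylase of the early embryo (mm9 chr19:37772298-37776026, plus strand). The 250 bases before each start site are shown from RefSeq (GRCm38.p6) with a direct repeat of 2 half-sites 5 bases apart in capitals; the Cyp26a1 element lies on the opposite strand.
Rarb chr14:16575477-16575726 (minus strand): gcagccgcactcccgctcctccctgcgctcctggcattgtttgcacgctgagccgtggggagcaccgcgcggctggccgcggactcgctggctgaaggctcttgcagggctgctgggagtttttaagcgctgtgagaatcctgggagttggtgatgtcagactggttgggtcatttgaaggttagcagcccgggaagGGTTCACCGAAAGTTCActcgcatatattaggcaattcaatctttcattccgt
Cyp26a1 chr19:37697558-37697807 (plus strand): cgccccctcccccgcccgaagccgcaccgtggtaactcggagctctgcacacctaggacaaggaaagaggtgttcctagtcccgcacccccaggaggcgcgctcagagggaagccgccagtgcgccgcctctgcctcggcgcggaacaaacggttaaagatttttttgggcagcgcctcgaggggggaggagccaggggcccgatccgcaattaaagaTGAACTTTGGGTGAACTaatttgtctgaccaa
The half-site spellings searched, on both strands and in any pairing, were AGGTCA (the consensus), AGTTCA (held by both genes shown), GGGTCA (a variant with G first) and GGTTCA (held by Rarb), and the window ran from 250 bases before to 50 after the start. The spacing of 5 bases was found in 31 of 27025 genes with a promoter entry (0.115%) and in 2 of the 52 genes with an entry among 80 receptor, Hox and cofactor genes, which are the 2 shown. A spacing of 2 bases was found in 84 of the 27025 (0.311%) and in none of the 52. The spacing of 5 bases was in 6 of the 12064 genes tested that have a promoter entry (0.0497%). Among these it was in 2 of 2709 genes called at least 2-fold higher (0.0738%) and 3 of 2201 called at least 2-fold lower (0.136%). With counts so small, no difference between these shares is read. Since the spellings include those held by the 2 genes shown, their count among the 52 is a description only. A window without a match says only that these letters are not in it.

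Among the libraries, 2i replicate 3 stood apart. In it, 1637 of 16561 genes tested (9.89%) lay at least 2-fold below both sister libraries, against 40 to 72 genes in each of the other 5. Its median FPKM over tested genes was 6.44, against 9.13 and 9.15 in 2i replicates 1 and 2 and 6285 of its gene entries are listed at 0, against 4953 and 5135. Of those 1637 genes, 845 (51.6%) were called at least 2-fold higher in retinoic acid, against 2986 of the other 14924 genes tested. Retinoic acid replicate 3 had 213 genes at least 2-fold above both sister libraries and was highest in most endoderm genes, as given below. The summed level of the Y-linked genes Eif2s3y, Uty and Ddx3y was 160 ± 5.01 FPKM in retinoic acid and 336 ± 19.7 FPKM in 2i (SD, n = 3 each), and Xist stayed at or below 9.81 FPKM in all 6. Depth, recovered from the steps between low values, was 116.4 to 141.7 M counting units in retinoic acid and 91.8 to 105.0 M in 2i (M is 1000000), on a scale that the labels do not state and that was inferred.

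Values are FPKM as deposited, about 10 times a conventional FPKM on that inferred scale. A gene was called when limma gave a Benjamini-Hochberg adjusted p under 0.05 on log2(FPKM + 0.5), and every log2 difference is retinoic acid minus 2i. Of 16561 genes tested, 5882 rose (35.5%) and 5990 fell (36.2%). At least 2-fold changes were called upward for 3831 genes (23.1%) and downward for 3054 genes (18.4%), and these shares are the background for each list below. The median difference of all genes tested was -0.001 on the log2 scale. Without 2i replicate 3 there were 6780 calls of at least 2-fold in place of 6885, and 6414 were shared with the same sign.

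The largest rises by the rule for named genes were of Cyp26b1, Ccnd2, Dach1, Hoxb5os, Wt1, Hoxb6, Id2, Adamts1, Msx1os, Dlk1 and Msx1, with Dbx1. Dbx1, a homeobox gene of the neural tube, was at 154, 114 and 112 FPKM in retinoic acid and is listed at 0 in every 2i library, so no fold is given. Msx1, a homeobox gene of dorsal and mesenchymal tissues, was at 580, 543 and 530 FPKM in retinoic acid, against 3.90, 3.05 and 2.53 FPKM in 2i. The difference was 7.25 ± 0.154 (SE), with limma adjusted p = 4.74e-07, and the groups lay far apart. Msx1os and Hoxb5os overlap or flank coding genes, and since strand is not stated, reads of each and of its neighbour cannot be told apart. The deepest falls were of Tdgf1, Fgf4, Nanog, Aqp3, Esrrb, Arl14epl, Ly6a, Fam25c, Magea4, Khdc3, Prdm14 and Cdx1, with differences of -9.92 for Tdgf1 to -8.22 for Cdx1. Aqp3, a water and glycerol channel, was at 5.43, 5.91 and 7.93 FPKM in retinoic acid, against 2399, 2399 and 3716 FPKM in 2i. In serum with LIF it averaged 138 FPKM, so its 2i level stood above both other cultures.

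**Figure D1:**
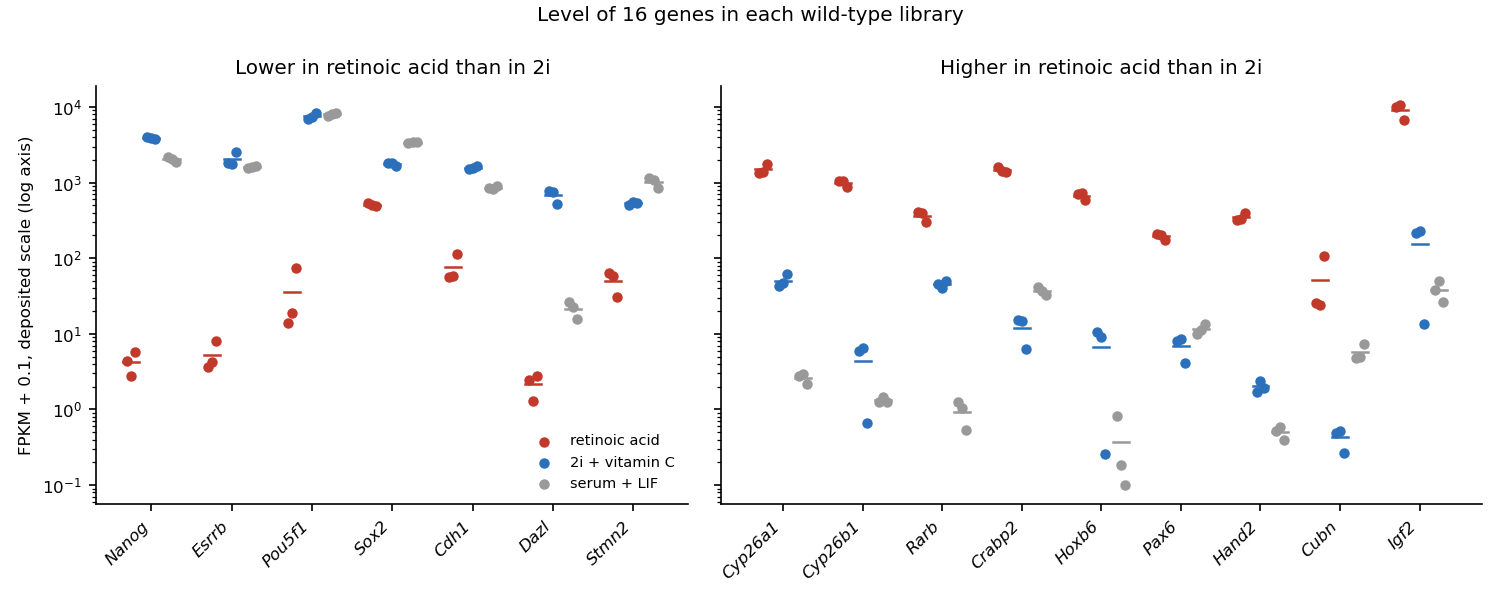
FPKM + 0.1 (log axis) of 16 genes in each wild-type library of retinoic acid, 2i and serum with LIF; points are libraries and bars are means of 3. The retinoic acid points lie below all 2i points for the 7 genes at left and above them for the 9 at right, and Rarb and Cyp26a1 were higher in 2i than in serum.

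Genes that make, carry, sense and destroy retinoic acid changed in large numbers. Of 24 tested, 17 were called at least 2-fold higher and 4 at least 2-fold lower, with a median difference of 2.25 (2.19 without 2i replicate 3). Among the degrading enzymes, Cyp26a1 was at 1353, 1360 and 1774 FPKM in retinoic acid, against 43.0, 46.6 and 61.2 FPKM in 2i. Cyp26b1 was at 1034, 1048 and 869 FPKM in retinoic acid, against 5.78, 6.34 and 0.564 FPKM in 2i. Neither gene's groups overlapped, and the differences were 4.89 ± 0.162 for Cyp26a1 (limma adjusted p = 1.49e-06) and 8.10 ± 0.675 for Cyp26b1 (adjusted p = 5.09e-05), the second being 7.22 without 2i replicate 3. Dhrs3, which reduces retinaldehyde back to retinol, averaged 714 ± 78.8 FPKM in retinoic acid and 75.7 ± 22.6 FPKM in 2i (SD, n = 3 each).

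On the side of synthesis, Aldh1a2, the main retinaldehyde dehydrogenase of the embryo, was at 473, 448 and 415 FPKM in retinoic acid, against 8.43, 7.41 and 2.99 FPKM in 2i. That is 71.0 times the 2i mean, whereas Aldh1a3 fell and stayed under 4 FPKM in every library. The carriers rose too. Crabp2, which delivers retinoic acid to its receptors, was at 1620, 1417 and 1384 FPKM in retinoic acid, against 15.1, 14.7 and 6.14 FPKM in 2i. Crabp1 averaged 1613 ± 263 FPKM in retinoic acid and 44.0 ± 9.31 FPKM in 2i (SD, n = 3 each). Stra6, the receptor that takes up retinol from its plasma carrier, rose by 4.35 ± 0.203.

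The receptors moved in different directions. Rarb was at 405, 395 and 299 FPKM in retinoic acid, against 45.7, 40.7 and 49.1 FPKM in 2i. Rarg, another receptor of the family, was at 57.5, 69.9 and 47.4 FPKM in retinoic acid, against 647, 694 and 447 FPKM in 2i. The Rarb groups differed by 3.00 ± 0.137 (limma adjusted p = 4.22e-06) and the Rarg groups by -3.34 ± 0.201 (adjusted p = 1.25e-05), with no overlap in either. Rara rose by 1.41 ± 0.0715 and Rxra by 1.28 ± 0.178. Stra8, a gene induced by retinoic acid in germ cells at entry to meiosis, fell, at 183, 208 and 256 FPKM in retinoic acid and 981, 954 and 666 FPKM in 2i.

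The 2i libraries were not a zero point for this pathway. Rarb averaged 45.2 FPKM in 2i and 0.833 FPKM in serum with LIF, and Cyp26a1 averaged 50.2 FPKM in 2i and 2.53 FPKM in serum with LIF. Of the 24 tested genes, 10 were higher in every 2i library than in every serum library, and 4 were lower in every one. The share over all genes tested was not counted, here or for the like Hox and germline counts below. Other lists varied, with 12 of 22 Polycomb genes, 11 of 19 cholesterol genes and 0 of 25 glycolysis genes higher in every 2i library. In the same lists 6, 1 and 22 genes were lower in every one. These counts are therefore descriptions only.

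The Hox genes, which give cells their position along the body axis in 4 clusters numbered from anterior (1) to posterior (13), divided by number. All 11 tested members of groups 5 to 8 and 11 of the 12 of groups 1 to 4 rose, with medians of 4.84 and 4.54. Of the 13 tested in groups 9 to 13, 7 rose and 6 fell, and 3 others (Hoxd10, Hoxd11 and Hoxd12) were too low to be tested. At least 2-fold calls numbered 28 upward and 6 downward among 36 tested, also without 2i replicate 3.

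Hoxb6 was at 698, 718 and 593 FPKM in retinoic acid, against 10.6, 8.92 and 0.154 FPKM in 2i. Its difference of 7.35 ± 1.01 has a wide error, with 2i replicate 3 far below its sisters, and was 6.03 without that library, 8.07 without replicate 1 and 7.95 without replicate 2. Hoxa5 was at 870, 850 and 753 FPKM in retinoic acid, against 70.8, 62.7 and 78.6 FPKM in 2i. The groups were far apart for both genes, and all 2i values of Hoxa5 lay above those of Hoxb6.

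At the posterior end, Hoxc12 was at 0.614, 0.252 and 0.789 FPKM in retinoic acid, against 85.0, 70.1 and 64.2 FPKM in 2i. Hoxc13 averaged 6.43 ± 1.82 FPKM in retinoic acid and 92.5 ± 5.92 FPKM in 2i (SD, n = 3 each). Hoxc11, Hoxa11, Hoxd13 and Hoxa13 fell too, by 3.83, 2.75, 2.56 and 1.67 on the log2 scale, whereas Hoxb13 rose by 1.37 and Hoxc10 by 1.82. In 2i, 32 of the 36 tested Hox genes were higher in every 2i library than in every serum library.

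**Figure D2:**
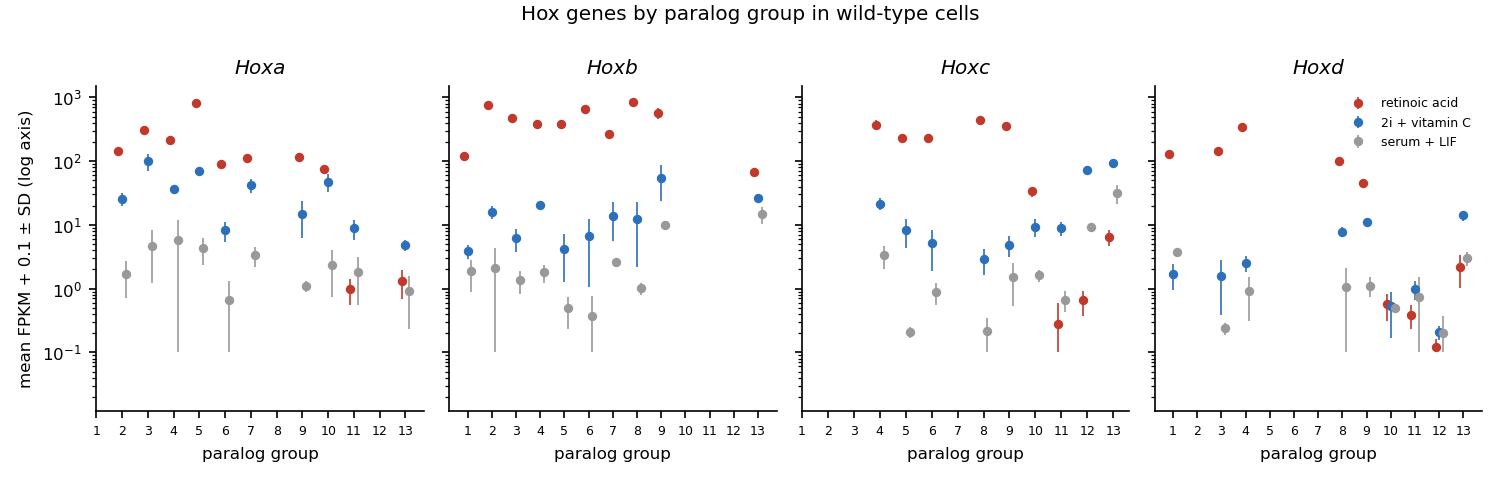
Mean FPKM + 0.1 (log axis, error bars SD over 3 libraries) of 38 Hox genes by paralog group, 1 panel per cluster, in retinoic acid, 2i and serum. Retinoic acid points lie above 2i points through group 9 in all 4 clusters and fall below them for Hoxa11, Hoxa13, Hoxc11 to Hoxc13 and Hoxd13, and also for Hoxd11 and Hoxd12, which were too low to be tested.

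Partners of the Hox proteins and related factors mostly rose. Of 16 tested genes for Meis and Pbx cofactors, Nr2f orphan receptors, Tshz factors and relatives, 13 were called at least 2-fold higher and 1 lower, with a median of 2.89. Nr2f1, an orphan nuclear receptor of the developing nervous system and mesoderm, was at 1164, 1160 and 850 FPKM in retinoic acid, against 11.5, 8.28 and 3.47 FPKM in 2i. Meis1, a Hox cofactor, was at 413.9, 411.4 and 392.1 FPKM in retinoic acid, against 10.5, 8.46 and 0.732 FPKM in 2i. Both sets of libraries were apart, by 7.13 ± 0.385 for Nr2f1 and 6.36 ± 0.773 for Meis1, which was 5.35 without 2i replicate 3. The 1 gene lower by at least 2-fold was Nr6a1, the germ cell nuclear factor, at 80.4 ± 6.52 FPKM in retinoic acid and 265 ± 20.4 FPKM in 2i (SD, n = 3 each).

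Against the label of neuronal differentiation, progenitor genes rose widely and markers of mature neurons unevenly. Of 34 neural progenitor genes tested, 28 were called at least 2-fold higher and 2 lower (median 3.21). Pax6, a factor of the ventricular zone, averaged 196.2 ± 19.96 FPKM in retinoic acid and 6.72 ± 2.40 FPKM in 2i (SD, n = 3 each). The groups were apart. Sox1, an early marker of neural commitment, was 1 of the smaller changes, at 107, 94.9 and 86.3 FPKM in retinoic acid and 34.98, 32.88 and 70.86 FPKM in 2i, and it was not called in a fit on all 18 libraries (limma adjusted p = 0.121). Six3 and Nkx2-2, of the anterior forebrain and the ventral neural tube, were too low to be tested.

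Of 28 neuron genes, 18 were called at least 2-fold higher and 5 lower (median of 2.201). The summed level of the list was not higher, at 1655, 1466 and 1220 FPKM in retinoic acid and 1798, 1856 and 1303 FPKM in 2i. In serum with LIF, from which the retinoic acid cells came, it was 2587, 2684 and 2166 FPKM. Of the 28 genes, 16 were lower in every 2i library than in every serum library and 4 were higher, with no share over all genes counted. Lhx1, a factor of early-born neurons and of intermediate mesoderm, rose by 6.35 ± 0.604, and Map2, a dendritic protein, by 3.65 ± 0.560. Without 2i replicate 3 the rise was 5.59 for Lhx1 and 2.97 for Map2. A pair of commonly used neuronal markers fell. Tubb3, the neuronal beta-tubulin, was at 345, 302 and 247 FPKM in retinoic acid, against 529, 557 and 420 FPKM in 2i, a fall of 0.75 that was not called in a fit on all 18 libraries (limma adjusted p = 0.172). Stmn2, a growth-cone protein, was at 63.1, 58.2 and 30.2 FPKM in retinoic acid, against 512, 549 and 535 FPKM in 2i. The synaptic genes Snap25 and Syt1 rose but stayed under 9 FPKM in every library, and the transporter gene Slc17a6 was at or near 0 throughout. In glia, 6 of 10 tested rose and 1 fell by at least 2-fold. Sox9, Slc1a3 and Pdgfra were among the risers, and Pdgfra is also in the endoderm and mesoderm lists. The risers Cspg4 and Sox10 averaged only 1.258 and 1.302 FPKM in retinoic acid. Aldh1l1 was the 1 lower, at 3.17, 3.71 and 5.47 FPKM in retinoic acid and 32.31, 30.15 and 59.74 FPKM in 2i. Gfap was not called and S100b was too low to be tested.

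Markers of other cell types moved with the neural ones, and their part in any single result was not tested. In bulk RNA, fewer cells of a type and less RNA per cell cannot be told apart. Of 26 endoderm genes, 22 were called at least 2-fold higher and 1 lower (median 2.88). Gata6, an endoderm regulator, was at 197, 194 and 240 FPKM in retinoic acid, against 40.4, 38.2 and 25.4 FPKM in 2i. Cubn, an uptake receptor of visceral endoderm, was at 25.4, 23.8 and 106 FPKM in retinoic acid, against 0.389, 0.426 and 0.163 FPKM in 2i. Both rose in every library, but Cubn was far higher in retinoic acid replicate 3 than in its sisters. In that library 25 of the 26 genes had the highest value of the 3. It was also the highest for 17 of 20 p53 targets and 15 of 17 trophoblast genes, but for only 3 of 28 neuron genes. The share over all genes tested was not counted. The summed level of the endoderm list was 8651 FPKM in that library, against 4787 and 4664 FPKM in replicates 1 and 2. In 2i the sums were 3377, 3560 and 5960 FPKM, so the summed levels of the groups overlapped. Without 2i replicate 3 the endoderm counts by at least 2-fold were again 22 higher and 1 lower. Apoe, the lipoprotein gene that was the 1 lower, was at 383, 426 and 434 FPKM in retinoic acid and 1984, 2048 and 5017 FPKM in 2i.

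Mesodermal genes went both ways. Of 19 tested, 9 rose and 8 fell by at least 2-fold. Hand2, a factor of heart and limb mesenchyme, was at 323, 333 and 395 FPKM in retinoic acid, against 1.62, 2.29 and 1.82 FPKM in 2i. Meox1 of the somites rose by 6.98 ± 0.360, Osr1 of intermediate and lateral mesoderm by 5.89 ± 0.558 (5.19 without 2i replicate 3) and Foxf1 of lateral mesoderm by 5.70 ± 0.335. A pair of primitive streak genes were lower after retinoic acid. Eomes was at 1.32, 1.45 and 2.90 FPKM in retinoic acid and 35.70, 37.98 and 26.61 FPKM in 2i, and T (brachyury) was at 0.675, 0.693 and 1.10 FPKM in retinoic acid and 6.03, 7.97 and 3.95 FPKM in 2i. The libraries of each gene were apart.

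Mesenchymal genes rose in 12 of 16 and fell in none by at least 2-fold, 10 of 16 without 2i replicate 3. Neural crest genes gave 9 higher and 2 lower of 15. Twist1, a mesenchymal and crest factor, was at 488, 555 and 507 FPKM in retinoic acid, against 41.3, 35.7 and 36.3 FPKM in 2i, and Sox10, which marks migrating crest, stayed under 2 FPKM in all 6 libraries compared. Of 17 trophoblast genes, 9 were higher and 6 lower: the keratins Krt8 and Krt18, Gata2 and Gata3 rose and Tfap2c, Cdx2 and Ascl2 fell, and of the markers particular to that lineage Elf5 stayed under 1 FPKM and Tpbpa and Prl3d1 are listed at 0 in all 6 libraries. Blood and endothelial genes gave 3 higher and 2 lower of 11, close to the shares over all genes tested, and the leukocyte gene Ptprc was at or near 0.

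**Figure D3:**
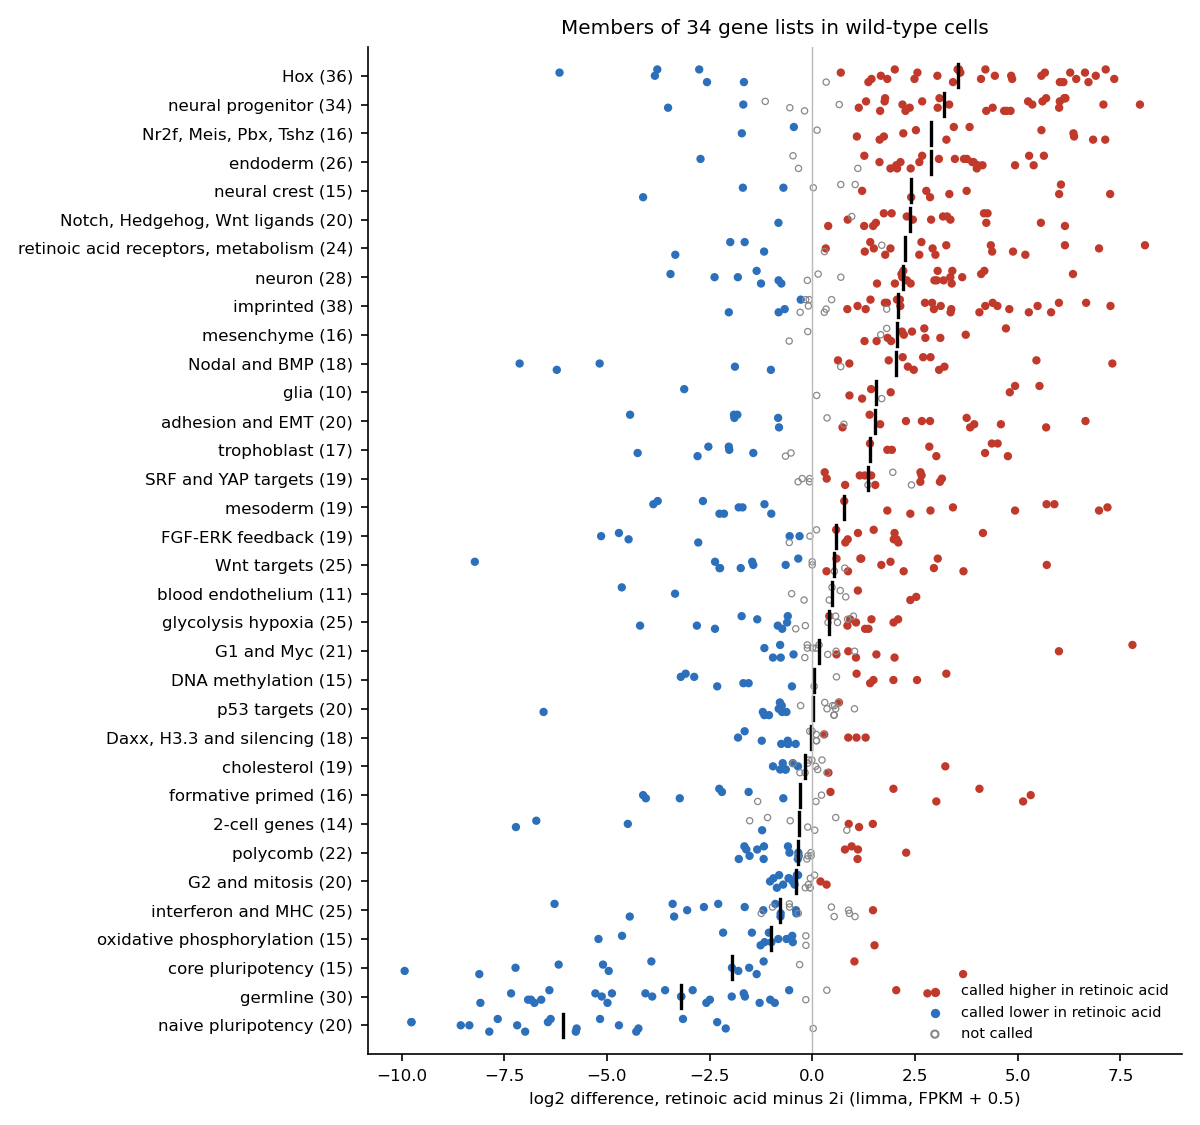
Log2 difference (retinoic acid minus 2i) of each tested member of 34 gene lists, with the number tested in brackets; filled points were called higher or lower, open points were not called, and black bars are list medians. Medians run from 3.55 for Hox genes to -6.07 for naive pluripotency genes, and most lists hold members on both sides of 0.

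Genes listed for the Notch, Hedgehog and Wnt pathways mostly rose. Of 20 tested, 16 were called at least 2-fold higher and none lower (median 2.37). For 8 of the 16, the serum mean was nearer to 2i than to retinoic acid on the log scale. Shh, a ventral morphogen, was at 24.98, 22.58 and 22.90 FPKM in retinoic acid, against 1.07, 1.19 and 0.229 FPKM in 2i, and its target Gli1 averaged 106 ± 6.77 FPKM in retinoic acid and 5.50 ± 2.26 FPKM in 2i (SD, n = 3 each). Wnt1, a dorsal ligand, was at 51.8, 46.0 and 45.1 FPKM in retinoic acid and at or below 0.403 FPKM in 2i. Direct targets of beta-catenin did not share a direction, with 9 of 25 higher and 7 lower. Axin2, a feedback target, was at 185, 187 and 170 FPKM in retinoic acid and 99.1, 97.1 and 99.4 FPKM in 2i, where the GSK3 inhibitor was present. Cdx1 was at 1.92, 3.07 and 3.04 FPKM in retinoic acid, against 725, 735 and 1510 FPKM in 2i, and its serum mean was 14.02 FPKM.

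In the Nodal and BMP list 10 of 18 were higher and 5 lower. Nodal, Inhbb, Lefty1 and Lefty2 fell, and the BMP targets Id1, Id2 and Id3 rose. Id3 was at 3877, 3940 and 3567 FPKM in retinoic acid, against 119, 164 and 32.2 FPKM in 2i. Nodal was at 3.70, 2.29 and 4.60 FPKM in retinoic acid, against 278, 308 and 288 FPKM in 2i. No library crossed over for either gene.

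FGF and ERK target genes, which a MEK inhibitor holds down, were not uniformly higher after retinoic acid. Of 19 tested, 7 rose and 4 fell by at least 2-fold. Dusp6, a phosphatase induced by ERK, was at 142, 134 and 140 FPKM in retinoic acid and 80.3, 91.8 and 67.5 FPKM in 2i. Dusp4 averaged 137 ± 15.2 FPKM in retinoic acid and 7.497 ± 2.468 FPKM in 2i, and Etv4, an ETS factor downstream of FGF, went the other way with 12.5 ± 1.18 FPKM in retinoic acid and 456 ± 19.4 FPKM in 2i (SD, n = 3 each). Fgf4, the ligand that stem cells secrete, was at 0, 0.140 and 0.219 FPKM in retinoic acid and 537, 547 and 512 FPKM in 2i.

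Naive pluripotency genes fell almost throughout. Of 20, 19 fell by at least 2-fold and none rose, with a median of -6.07. Nanog, a homeodomain factor of the naive network, was at 4.32, 2.66 and 5.58 FPKM in retinoic acid, against 4026, 3910 and 3825 FPKM in 2i. Klf2, a Krüppel-like factor of the same network, was at 9.54, 8.80 and 11.02 FPKM in retinoic acid, against 2367, 2295 and 2507 FPKM in 2i. No member overlapped between the groups except Gbx2, the 1 not called, at 241, 236 and 183 FPKM in retinoic acid and 183, 223 and 245 FPKM in 2i. The share without overlap over all genes tested was not counted, so this is a description only. For 18 of the 19, the serum mean was nearer to 2i than to retinoic acid on the log scale. Tbx3 fell least, by 2.11 ± 0.0619.

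In the core list 12 of 15 fell and 2 rose by at least 2-fold, 12 and 1 without 2i replicate 3. Pou5f1, the gene of Oct4, was at 13.8, 18.6 and 73.9 FPKM in retinoic acid, against 7000, 7296 and 8347 FPKM in 2i. Retinoic acid replicate 3 was the highest of its group, as it was for 13 of the 20 naive genes and 9 of the 15 core genes. The share over all genes tested was not counted, so these counts are descriptions only. Sox2, shared by stem cells and neural progenitors, kept more of its level, at 542, 499 and 483 FPKM in retinoic acid and 1831, 1833 and 1655 FPKM in 2i. The risers were Lin28a and Lin28b, which bind let-7 precursors, and Lin28a was not called without retinoic acid replicate 3 (limma adjusted p = 0.0594). Lin28b was at 181, 181 and 188 FPKM in retinoic acid, against 18.01, 16.11 and 9.29 FPKM in 2i.

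Formative and primed epiblast genes gave 5 higher and 6 lower of 16. Fgf5, the usual marker of the formative epiblast, was at 27.3, 29.4 and 22.7 FPKM in retinoic acid and 0.199, 0.227 and 0.382 FPKM in 2i. Otx2, an epiblast and forebrain factor, was at 0.154, 0.887 and 0.484 FPKM in retinoic acid and 15.6, 17.2 and 13.8 FPKM in 2i, with a serum mean of 122 FPKM. Pou3f1 was not called. The 2 main cadherins changed in opposite directions. Cdh1 (E-cadherin) averaged 75.8 ± 32.6 FPKM in retinoic acid and 1565 ± 79.3 FPKM in 2i, and Cdh2 (N-cadherin) averaged 323 ± 18.3 FPKM in retinoic acid and 6.79 ± 4.04 FPKM in 2i (SD, n = 3 each). Of 20 adhesion genes, 11 rose and 4 fell by at least 2-fold, 11 and 6 without 2i replicate 3, and of 19 SRF and YAP targets, 9 rose and none fell.

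Most germline genes fell. Of 30 tested, 24 were called at least 2-fold lower and 2 higher (median -3.19). Dazl, an RNA-binding protein of germ cells, was at 2.34, 1.19 and 2.68 FPKM in retinoic acid, against 767, 752 and 526 FPKM in 2i. Rpl10l, a testis ribosomal protein, was at 14.2, 14.4 and 23.1 FPKM in retinoic acid, against 2732, 2751 and 2883 FPKM in 2i. Both had lower means in serum than in 2i, 21.4 FPKM for Dazl and 442 FPKM for Rpl10l, and 20 of the 30 genes were higher in every 2i library than in every serum library. Hormad1, of meiotic chromosome axes, is listed at 0 in all retinoic acid libraries and was at 45.3, 52.2 and 46.7 FPKM in 2i. Tdrd1 and Tdrkh, of the piRNA pathway, rose. Members with near-identical copies (Tuba3a and Tuba3b, the Xlr3 genes, Magea5) are uncertain as single genes, since reads can be split between copies.

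Genes of the 2-cell-like state did not move together. Of 14 tested, 2 rose and 4 fell by at least 2-fold, and 1 and 7 without 2i replicate 3. Calcoco2 was at 3.10, 3.21 and 6.60 FPKM in retinoic acid and 632, 604 and 291 FPKM in 2i. Zscan4d and Zscan4f were higher in retinoic acid, by 1.14 and 1.47, at levels under 31 FPKM, and as members of a family of near-identical genes they too are uncertain. The Zscan4d call (limma adjusted p = 0.0488) was lost without any 1 retinoic acid library, with p of 0.0777 to 0.144.

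Enzymes of DNA methylation changed both ways. Tet1 and Tet2, which oxidise methylcytosine, fell, and Tet3 rose. Tet1 was at 26.7, 26.6 and 24.99 FPKM in retinoic acid, against 248.9, 212 and 216 FPKM in 2i, and Tet3 was at 129, 125 and 140 FPKM in retinoic acid, against 23.3, 19.7 and 23.2 FPKM in 2i. Of the methyltransferases, Dnmt3a rose by 1.98 ± 0.107 and Dnmt3b fell by 1.55 ± 0.193. The cofactor Dnmt3l fell by 3.202 ± 0.605 (by 3.86 without retinoic acid replicate 3), and was at 62.2 FPKM in retinoic acid replicate 3 against 14.4 and 16.3 FPKM in its sisters. Uhrf1, which recruits Dnmt1 to new DNA, fell by 1.68 ± 0.0790.

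Of 22 Polycomb genes, 3 rose and 7 fell by at least 2-fold. The core PRC2 subunits Suz12 and Eed fell, with Suz12 at 266, 253 and 275 FPKM in retinoic acid and 782, 754 and 982 FPKM in 2i. Cbx2, a reader of the Polycomb mark, was at 428, 430 and 423 FPKM in retinoic acid and 105, 101 and 62.0 FPKM in 2i. Both contrasts were free of overlap. Daxx, the H3.3 chaperone that the series deletes in its other line, was at 238, 242 and 265 FPKM in retinoic acid and 434, 423 and 402 FPKM in 2i, a difference of -0.76 ± 0.0698 (limma adjusted p = 8.06e-05), and its partner Atrx was not called.

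Imprinted genes, which are expressed from 1 parental allele and include many growth regulators of the fetus, mostly rose. Of 38 tested, 25 were called at least 2-fold higher and 1 lower (median 2.10). Mest was at 7182, 7017 and 6807 FPKM in retinoic acid, against 340, 382 and 225 FPKM in 2i. Igf2, a fetal growth factor, was at 10010, 10620 and 6661 FPKM in retinoic acid, against 215, 227 and 13.3 FPKM in 2i. H19, the noncoding neighbour of Igf2, was at 5690, 6619 and 8122 FPKM in retinoic acid, against 527, 429 and 14.6 FPKM in 2i. For all 3 genes the groups were apart, and for Igf2 and H19 the 2i libraries differed by over 10 times. Cdkn1c, an inhibitor of the cell cycle, averaged 1752 ± 263 FPKM in retinoic acid and 34.8 ± 23.5 FPKM in 2i (SD, n = 3 each). The summed list was 47360 to 50730 FPKM in retinoic acid and 4412 to 5663 FPKM in 2i. Ascl2, a factor of the placenta, was the 1 imprinted gene lower by at least 2-fold.

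In the G1 list, the D cyclins went both ways. Ccnd2 was at 1100, 944 and 908 FPKM in retinoic acid, against 9.46, 9.47 and 0.371 FPKM in 2i, Ccnd1 rose by 0.59 ± 0.0890 and Ccnd3 fell by 0.77 ± 0.0782. Of 20 mitotic genes none rose and 1 fell by at least 2-fold. Of 20 p53 targets none rose and 4 fell by at least 2-fold, led by Gdf15 at 1.50, 0.461 and 0.843 FPKM in retinoic acid and 81.6, 89.8 and 282 FPKM in 2i.

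Interferon and antigen-presentation genes gave 1 higher and 9 lower of 25, and 1 and 12 without 2i replicate 3. Oas1a, an antiviral enzyme, was at 0.777, 0.526 and 1.37 FPKM in retinoic acid, against 110, 116 and 87.3 FPKM in 2i. Isg15, an interferon-induced modifier, was at 1.49, 1.69 and 2.09 FPKM in retinoic acid and 71.5, 80.9 and 1.76 FPKM in 2i, so its groups overlapped through 2i replicate 3 alone. Its limma adjusted p of 0.0499 was 0.104 to 0.145 when any 1 of the other 5 libraries was left out. B2m, the light chain of class I molecules, was the 1 riser, at 402, 358 and 416 FPKM in retinoic acid and 155, 186 and 95.9 FPKM in 2i.

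Metabolic genes changed both ways. In glycolysis, 6 of 25 rose and 5 fell by at least 2-fold, close to the shares over all genes tested (23.1% and 18.4%). The counts were 10 and 5 without 2i replicate 3 and 4 and 5 without retinoic acid replicate 3. Pfkp, a phosphofructokinase, fell to 12.4, 12.7 and 12.99 FPKM in retinoic acid, against 203, 223 and 309 FPKM in 2i. In oxidative metabolism, 7 of 15 fell and 1 rose by at least 2-fold, and Cpt1a, the carnitine transferase of fatty acid oxidation, averaged 13.98 ± 1.04 FPKM in retinoic acid and 547 ± 158 FPKM in 2i (SD, n = 3 each). Of 19 cholesterol synthesis genes 1 rose and none fell by at least 2-fold.

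For most genes the serum level lay on the side of 2i. Of the 3831 genes higher by at least 2-fold in retinoic acid, the serum mean was nearer to 2i on the log scale for 70.8%, and of the 3054 lower genes for 65.1%. It lay between the 2 groups for 60.8% of the higher and 68.8% of the lower genes. Germline genes were an exception among the lists, with serum nearer to 2i for 10 of 26. For Hox genes it was nearer to 2i for 30 of 34 and for imprinted genes for 25 of 26. These are levels side by side, since the 2i and retinoic acid libraries enter each count.

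Repeats are interspersed copies of mobile elements, and a deposited repeat value is a share of a separate repeat read set divided by the length of all its copies. That read set was 7.44, 7.68 and 7.504% as large as the gene read set in retinoic acid, against 15.7, 15.8 and 12.6% in 2i. The means of 7.54 ± 0.125% in retinoic acid and 14.7 ± 1.80% in 2i differed by -7.15 percentage points without overlap, with exact two-sided permutation p = 0.1, the smallest that 3 against 3 allows. Since the size of that read set differed between the groups, each result is given also after rescaling to the gene read set. Of 866 subfamilies tested, 578 were called higher (66.7%) and 85 lower (9.82%) as shares of repeat reads, of all calls 87.2% higher. After rescaling, 147 were higher and 275 lower, of all calls 34.8% higher, and the median moved to -0.10, against 0.70 as deposited. Directions below are stated only where both scales gave the same sign, unless said otherwise.

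**Figure D4:**
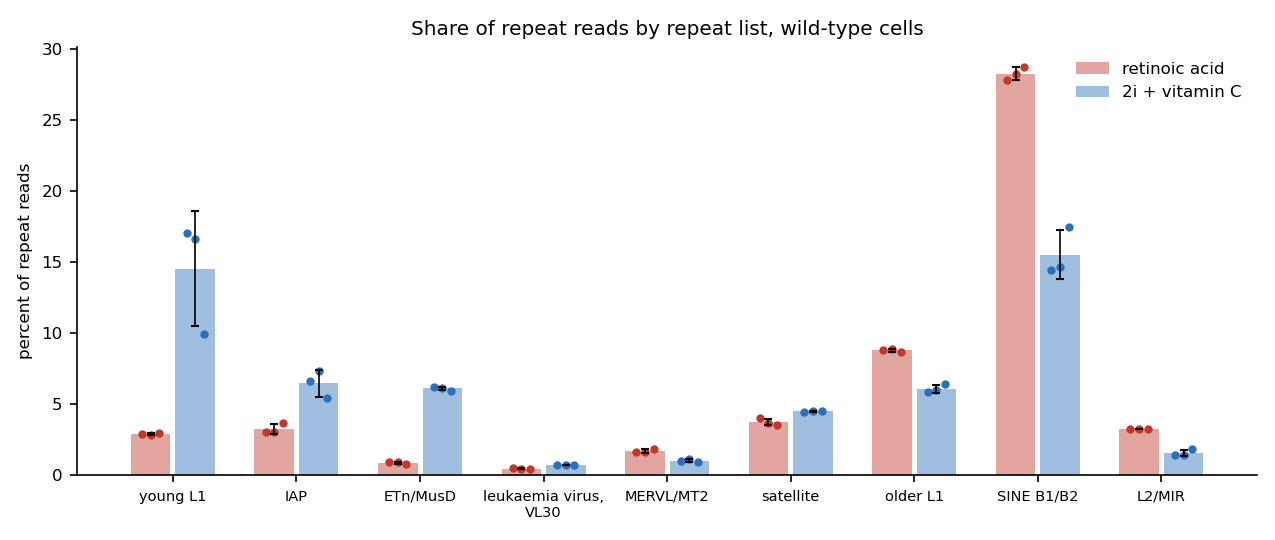
Share of repeat reads (percent) taken by 9 repeat lists in each retinoic acid and 2i library; bars are means of 3, error bars are SD and points are libraries. Young L1, IAP and ETn/MusD took smaller shares in every retinoic acid library, and SINE B1/B2, older L1 and L2/MIR larger shares.

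Young L1 elements, the LINEs that can still move in mice, took 2.87, 2.79 and 2.94% of repeat reads in retinoic acid, against 17.05, 16.6 and 9.89% in 2i. In serum with LIF, from which the retinoic acid cells came, their share averaged 3.345 ± 0.4025% (SD, n = 3), nearer to retinoic acid than to 2i. L1Md_A was at 1.42, 1.38 and 1.49 in retinoic acid, against 20.1, 19.2 and 11.4 in 2i, in repeat FPKM. L1Md_A fell by 3.12 ± 0.216 as deposited (limma adjusted p = 6.35e-05) and by 3.92 rescaled, and L1Md_T fell by 2.18 and 3.04. Of 6 young subfamilies 4 were called lower as deposited and 6 rescaled, and none higher. 2i replicate 3 had the lowest young L1 share of its group and still lay above all retinoic acid libraries.

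The ETn and MusD elements, active endogenous retroviruses of the ERVK class, took 0.910, 0.888 and 0.786% in retinoic acid, against 6.18, 6.15 and 5.93% in 2i. Their mean share in serum with LIF was 2.826 ± 0.1599% (SD, n = 3). Of 12 subfamilies 10 were called lower as deposited and 12 rescaled. RLTR45-int, an internal sequence of the list and among its deepest falls, was at 5.85, 6.59 and 5.56 in retinoic acid, against 229, 217 and 217 in 2i, a difference of -5.09 ± 0.0845 (limma adjusted p = 1.83e-06). Its serum values of 5.59 to 6.42 overlapped those of retinoic acid. RLTR45-int alone makes up a large part of the list's share in 2i, so the fall of that share does not measure the other members. ETnERV3-int, also an internal sequence of the list, fell less, by 1.65 ± 0.195. It was at 21.8, 21.4 and 14.7 in retinoic acid, against 53.5, 57.7 and 72.8 in 2i, with a serum mean of 5.963.

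IAP elements took 3.06, 2.99 and 3.64% in retinoic acid, against 6.64, 7.29 and 5.41% in 2i. Their share in serum with LIF averaged 1.255 ± 0.1144% (SD, n = 3), below the mean of either other culture. IAPEz-int, an internal sequence of the list, was at 16.95, 16.7 and 23.7 in retinoic acid and 44.8, 49.9 and 32.7 in 2i, and IAPEy-int was at 0.307, 0.343 and 0.481 in retinoic acid and 29.2, 29.6 and 36.5 in 2i. The like-named IAPEY3-int went the other way, at 32.2, 30.1 and 19.6 in retinoic acid and 2.42, 2.54 and 2.27 in 2i (3.22 ± 0.192, and 2.35 rescaled). In all, 10 of 16 IAP subfamilies were called lower and 3 higher as deposited, 13 and 1 rescaled. Serum means were 8.357 for IAPEz-int, below retinoic acid and 2i, and 0.4475 for IAPEy-int, close to retinoic acid.

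Among ERV1 elements, RLTR1B-int was at 20.97, 21.2 and 28.1 in retinoic acid, against 318, 345 and 418 in 2i, and RLTR4_MM-int, related to murine leukaemia virus, was at 7.47, 7.16 and 8.34 in retinoic acid, against 48.1, 47.5 and 56.2 in 2i. RLTR13B2 of ERVK fell by 4.43 ± 0.172, and ORR1A0-int, a MaLR element, by 2.12 ± 0.204. The largest rise of a retroviral subfamily by the rule was of RNERVK23-int, at 56.1, 51.1 and 50.4 in retinoic acid and 2.74, 3.00 and 2.63 in 2i, and RMER17A-int and the DNA transposon Kanga2_a rose by 3.54 and 3.56. Each of these kept its sign after rescaling.

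MERVL, the element tied to 2-cell-stage genes, depended on the scale. MERVL-int was at 15.9, 15.6 and 19.7 in retinoic acid and 10.4, 12.4 and 7.01 in 2i, a rise of 0.78 ± 0.216 as deposited (limma adjusted p = 0.0171) that became -0.14 rescaled (limma adjusted p = 0.734). Without retinoic acid replicate 3 the rise was not called either (limma adjusted p = 0.0564). SINE B1 and B2 elements behaved alike: they took 28.2 ± 0.436% of repeat reads in retinoic acid and 15.5 ± 1.71% in 2i (SD, n = 3 each), all 26 subfamilies were called higher as deposited, and none higher and 6 lower rescaled. Older L1 elements depended on the scale too. Of 98 subfamilies, 72 were called higher and 3 lower as deposited (median 0.63), and 14 higher and 25 lower rescaled (median -0.086). The LTR class as a whole took 20.3 ± 0.239% in retinoic acid and 36.5 ± 2.60% in 2i (SD, n = 3 each). Its subfamilies did not follow that total on both scales: of 450, 269 were called higher and 68 lower as deposited (median 0.46), and 60 higher and 189 lower rescaled (median -0.24).

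**Figure D5:**
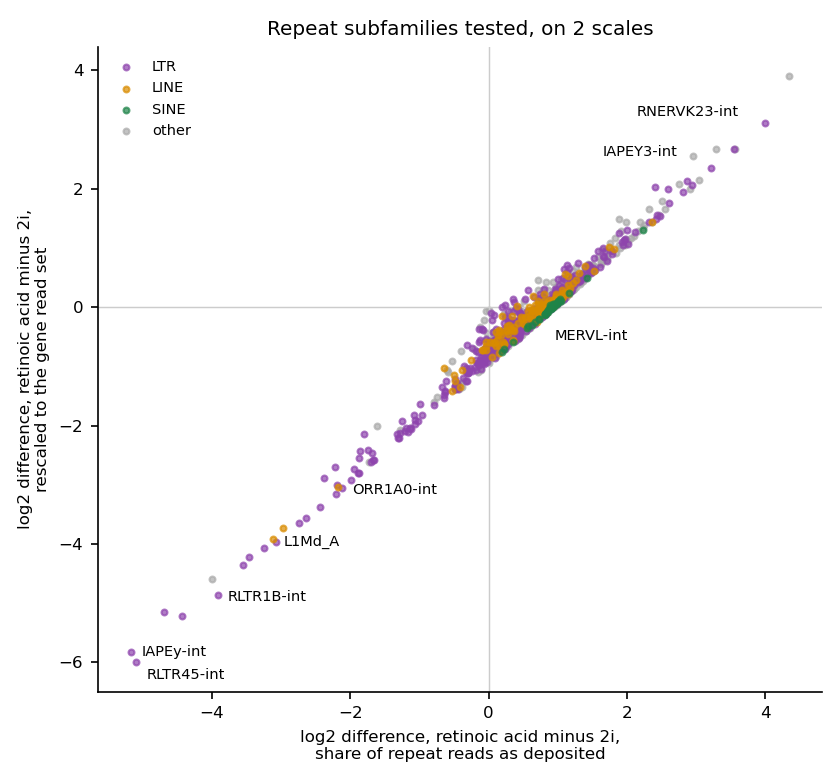
Log2 difference (retinoic acid minus 2i) of 866 repeat subfamilies as deposited (horizontal axis) and rescaled to the gene read set (vertical axis), coloured by class, with 8 named. The cloud is shifted down, so MERVL-int and the SINEs lie near 0 or below on the vertical axis, while RLTR45-int, IAPEy-int, RLTR1B-int, L1Md_A and ORR1A0-int are far below 0 and RNERVK23-int and IAPEY3-int above 0 on both.

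The same contrast was measured in the Daxx-null line. Of the 3831 genes higher by at least 2-fold in wild-type retinoic acid cells, 60.3% were called in the same direction in Daxx-null cells and 3.498% in the opposite one, and of the 3054 lower genes 89.2% and 0.360%. The share of all tested genes called each way in Daxx-null cells was not counted. The median difference over all genes was -0.159 in Daxx-null cells and -0.001 in wild type, so the 60.3% and 89.2% are not read against each other. A test of the difference itself (wild type minus Daxx-null, 12 libraries, 17660 genes) called 3692 genes with a higher value in wild type (20.9%) and 1239 with a lower one (7.02%). With quantile normalization these counts were 1955 and 1898, and the median over all genes as deposited was 0.27, so the excess of higher calls depends on that scaling. Among the lists, 17 of 26 endoderm genes had a higher difference in wild type, with median differences of 2.88 in wild type and 0.72 in Daxx-null cells. Shares were larger for 2-cell genes (17 of 18), interferon and antigen-presentation genes (23 of 30), trophoblast genes (13 of 17), p53 targets (15 of 20) and germline genes (21 of 30). Mitotic genes (12 of 20) and cholesterol genes (10 of 19) had a lower difference in wild type. All these list counts are on the deposited scale. Of 37 Hox genes 2 were called, both with a lower difference in wild type, and the medians were 3.55 in wild type and 3.67 in Daxx-null cells. Of 20 naive pluripotency genes, 5 had a higher and 3 a lower difference. Of 38 imprinted genes, 17 were higher and 1 lower.

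Among single genes, Grb10, an imprinted growth inhibitor, was at 697, 596 and 749 FPKM in wild-type retinoic acid cells and 142, 135 and 220 FPKM in wild-type 2i cells. In Daxx-null cells it was at 5.71, 5.18 and 4.04 FPKM in retinoic acid and 56.4, 45.6 and 53.2 FPKM in 2i. All retinoic acid values lay above 2i in the wild type and below it in the null, with a difference between the genotypes of 5.32 ± 0.268 (limma adjusted p = 4.14e-06). The Daxx-null groups differed in the Y-linked gene Eif2s3y, at 0.149, 0.084 and 0.699 FPKM in retinoic acid and 127, 95.0 and 103 FPKM in 2i. The part of that in the genotype differences was not tested. Daxx-null 2i replicate 2 correlated with its sisters at 0.948 and 0.954, and these with each other at 0.987.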

How the data were processed

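Per the labels' protocols, total RNA was enriched on oligo(dT) beads, depleted of ribosomal RNA and made into libraries from random hexamers, which favours polyadenylated RNA; how strand was handled is not stated. The authors deposited FPKM values for 24505 gene entries and 906 repeat subfamilies in each library, and a table of log2 values that, from the values, was quantile normalised and is used here only as an alternative. The build is mm9, and Bowtie2 2.2.6, HOMER 4.8 and limma are named, with no role or order, per the submitters' processing notes. The FPKM scale was inferred from whole-unit steps (tolerance 0.1), and depth rests on it.

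From these, log2(FPKM + 0.5) was tested with limma 3.58.1 in R 4.3.3 (trend, Benjamini-Hochberg) on the 6 libraries, over 16561 genes of at least 1 FPKM in 3 libraries. Repeats used log2(FPKM + 0.518) over 866 subfamilies above 0 in 3 libraries. Rescaling multiplied repeat values by the size of the repeat read set over the gene read set. The genotype difference was fitted on 12 libraries. The code was tested on simulated data. Some results are not reported here, in text or plot. Nothing says that replicates came from separate cultures, so the p-values cover only variation among these libraries, which may be technical.

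The members and all 34 gene lists (721 names, 720 matched, 3 by an older symbol) were chosen with earlier results of these data known. Genes named were the 12 largest changes each way, the first 4 and up to 8 most changed members of each list, all Hox genes and the 6 largest genotype differences each way. Aldh1a3, Apoe, Ascl2, Gbx2, Lin28a, Nkx2-2, Nr6a1, Prl3d1, Ptprc, Rara, Rxra, S100b, Six3, Slc17a6, Snap25, Stra8, Syt1, Tbx3, Tdrd1, Tdrkh and Tpbpa were chosen after their values were seen. Alternatives covered pseudocounts, filters, scalings, a replicate block, all 18 libraries and leaving out each library.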

Additional observations from a re-analysis of the deposited data

Results flagged for a closer look

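Each result here is a gene whose retinoic acid minus 2i difference differed between wild-type and Daxx-null cells by a limma test of the difference itself, and all are among the 12 largest by the rule for named genes. The values are wild type minus Daxx-null on the log2 scale.

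With a higher difference in wild type stood H19 at 8.33, Eif2s3y at 6.26, Rhox9 at 6.18, Fmr1nb at 5.82, Rhox6 at 5.50 and Grb10 at 5.32. Without wild-type 2i replicate 3 the H19 genotype difference was 6.67, the Rhox9 genotype difference 5.36 and the Rhox6 genotype difference 4.67. H19 was 9.23 without wild-type 2i replicate 1 and 9.09 without replicate 2. H19 was at 5690, 6619 and 8122 FPKM in wild-type retinoic acid cells and 527, 429 and 14.6 FPKM in wild-type 2i cells. In Daxx-null cells H19 was at 14.9, 43.4 and 38.4 FPKM in retinoic acid and 165, 298 and 197 FPKM in 2i. Eif2s3y, a Y-linked gene, was at 90.97, 98.04 and 89.95 FPKM in wild-type retinoic acid cells and 168, 178 and 166 FPKM in wild-type 2i cells. In Daxx-null cells Eif2s3y was at 0.149, 0.084 and 0.699 FPKM in retinoic acid and 127, 95.0 and 103 FPKM in 2i, so the Daxx-null retinoic acid libraries were near 0 for a Y-linked gene that the Daxx-null 2i libraries expressed. The part of that in the other genotype differences was not tested. The wild-type fall of Rhox6 was not called when any 1 library other than 2i replicate 3 was left out. Rhox6 and Rhox9 have near-identical copies and are uncertain as single genes.

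With a lower difference in wild type stood Nkx1-2 at -3.98, Apol6 at -3.72, Fam19a4 at -3.35, Nphs1 at -3.31 and Nphs1os at -3.24. Nkx1-2 was at 2.81, 2.15 and 1.35 FPKM in wild-type retinoic acid cells and 24.4, 21.5 and 23.9 FPKM in wild-type 2i cells, while in Daxx-null cells it stayed at or below 2.79 FPKM in all 6 libraries. The other 4 were under 1 FPKM in every wild-type retinoic acid library and between 23.7 and 95.7 FPKM in wild-type 2i. Nphs1 and Nphs1os overlap and cannot be told apart without strand.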

How the results depend on the processing

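Counts of genes called in wild type stayed within 1.5 times under all alternatives run: leaving out 1 library at a time gave 5129 to 6283 higher and 5298 to 6672 lower, and 3626 to 3905 and 2927 to 3188 by at least 2-fold. Repeat counts moved with scaling, to 284 higher and 224 lower after quantile normalization and 147 and 275 after rescaling to the gene read set, and with 1 library left out they were 537 to 575 and 76 to 86. The repeat read set difference was -8.19 to -6.60 percentage points with 1 library left out. Genotype difference counts became 1955 and 1898 with quantile normalization. Leaving out 1 wild-type library gave 2685 to 3608 higher and 808 to 1221 lower, the 808 without retinoic acid replicate 2. Leaving out Daxx-null 2i replicate 2, an alternative chosen after seeing the data, gave 3901 and 1491. Among genes not called in wild type, the sign of Pou3f1 turned with quantile normalization (-0.057) and the authors' normalised table (-0.052), and with 1 library left out the range was -0.024 to 0.41 for Pou3f1, -0.10 to 0.15 for Gbx2 and -0.31 to 0.37 for Gfap. MERVL-int became -0.14 after rescaling. The cause of these shifts was not tested.

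Of 1088 recomputed list counts, 1045 stayed within 1.5 times. With a replicate block the gene counts were 5745 higher and 5889 lower, the repeat counts 557 and 85, and the genotype counts 3379 and 1079. The block lost Isg15, Zscan4d and the MERVL-int repeat, whose adjusted p were 0.0523, 0.0811 and 0.0524. Same-numbered libraries correlated at 0.090, 0.0054 and 0.074, so the numbers were not taken to pair the samples. Depth exceeded 91.8 M inferred units in each of the 6 libraries, and low genes are limited by the spread between replicates and by the pseudocount.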
